A study of Mus musculus with 6 samples.

Results

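The genes described here are 37 genes of peroxisome biogenesis and peroxisomal lipid metabolism, of 55039 genes in the deposited tables. They were chosen by gene symbol and comprise 13 peroxins, which build the organelle, and 24 metabolic members, which transport or convert its substrates. All 37 were found in the tables and passed the filter on low counts. RNA sequencing was performed on epididymal white adipose tissue (eWAT) of 6 male C57BL/6 mice aged 6 to 7 weeks at the start. The CAC group (cancer-associated cachexia) comprised 3 mice that carried a subcutaneous tumor of Lewis lung carcinoma cells, a mouse line. The CONT group comprised 3 mice that received PBS in place of tumor cells. The tissue was taken on day 28 after the injection. Each library came from a bulk sample of this tissue of 1 mouse, so each value is an average over adipocytes and all other cells of the sample. The tests measure the spread between these mice.

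Peroxisomes are single-membrane organelles that shorten very long and branched fatty acids, start the synthesis of ether lipids and break down the hydrogen peroxide that their oxidases make. Their matrix enzymes are translated in the cytosol and carry a short targeting signal, either at the last residues of the protein (PTS1, bound by Pex5) or near its start (PTS2, bound by Pex7). The receptor and its cargo dock at the membrane, the cargo enters, and the receptor is then tagged with ubiquitin and pulled out for another round. In adipocytes peroxisomes lie close to lipid droplets, and several of their genes are known targets of the nuclear receptors of the PPAR family.

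The targeting signals were searched as fixed patterns in the coding sequences of the members (GENCODE M21, GRCm38). A signal that departs from its pattern is missed, so the absence of a match does not settle which receptor an enzyme needs. Among 21465 coding genes, 112 (0.522%) ended in codons of the PTS1 pattern, which was serine, alanine or cysteine, then lysine, arginine or histidine, then leucine or methionine. Of the 37 members, 8 did: Ehhadh, Hsd17b4, Scp2, Decr2, Pecr, Crot, Acot8 and Gnpat. The last 30 coding bases are shown 5′ to 3′ for a few of them and for both members of the peroxide and epoxide group, with the last 3 codons before the stop codon in capitals.
Ehhadh (chr16:21762084-21762113, minus strand): ttggcaggaccccatagcAGCAAACTGtga
Scp2 (chr4:108044750-108044779, minus strand): cagcttcagccgggcaaaGCTAAGCTGtga
Pecr (chr1:72259348-72259377, minus strand): gaatcttttaagaagaaaGCCAAGCTCtaa
Crot (chr5:8966852-8966881, minus strand): atacagctgatgaacaccGCTCATCTTtag
Gnpat (chr8:124889286-124889315, plus strand): ataggaaaaccagccactGCAAAACTAtaa
Cat (chr2:103454756-103454785, minus strand): atggctgcgaagggaaaaGCTAACCTGtaa
Ephx2 (chr14:66084682-66084711, minus strand): cagaacccatcagtgaccTCCAAGATTtag
Ehhadh ended in codons for serine, lysine and leucine, the canonical signal, and Crot carried a histidine codon in the middle. Cat ended in codons for alanine, asparagine and leucine and Ephx2 in codons for serine, lysine and isoleucine, so that neither matched the pattern in full.

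The PTS2 pattern, searched in the first 40 codons, was found in 159 of the 21465 genes (0.741%) and in 5 members: Acaa1a, Acaa1b, Phyh, Pex11a and Eci2. Pex11a is a membrane protein, and a match of letters does not show that a signal is used. The 9 codons of the pattern are shown in capitals for the thiolases and for Phyh, which are established PTS2 cargoes. Agps is another known PTS2 cargo, but it held no match within these first codons.
Acaa1a (chr9:119341521-119341550, plus strand): CGGCTGCAGGTAGTGCTGGGCCACCTGgcc
Acaa1b (chr9:119156959-119156988, minus strand): CGGCTGCAGGTAGTGCTGGGTCACCTGgcc
Phyh (chr2:4919094-4919123, plus strand): CGGCTGCAGGTCCTTCTGGGACACCTCggc
The thiolase genes Acaa1a and Acaa1b were 96.5% identical over 1275 coding bases. Reads may therefore have been shared or lost between them, and the values of both are uncertain.

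The libraries held 15713794 to 25926425 counted reads, and 1 CPM (the reads of a gene per 1000000 reads, after scaling of the libraries) stood for 11.3 to 26.7 reads. CONT replicate 1 stood apart, with 30.2% of its reads from the mitochondrial genome against 3.89% to 5.04% in the other 5 libraries. The adipocyte marker Adipoq was high in every library (1678 to 3344 CPM). CONT replicate 3 also held RNA of the adjoining epididymis, with 8724 CPM summed over 6 epididymal markers. The same sum was 200.5 CPM in CONT replicate 1, 2.61 CPM in CONT replicate 2 and at most 0.562 CPM in the CAC libraries. The part of either feature in the results was not tested. How the counting treated strand is not given in the sources used here, so overlapping genes could share reads. Of its exon bases, Acot8 shared 12.3% with Snx21 and Pex14 shared 28.3% with Gm17029, both on the opposite strand, and Hacl1 shared 31.1% with Gm49387 on the same strand.

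Across the 37 genes, 30 had a positive log2 fold change of CAC over CONT, against 45.9% of the 17296 genes tested. The median was 0.44, and the range was -0.77 in Acox3 to 2.82 in Ehhadh, beside a median of -0.06 over all genes. No member, and no gene in the whole table (0% of 17296), reached an adjusted p under 0.05 in the quasi-likelihood test of edgeR, and the members' adjusted p ran from 0.242 to 0.961. At an unadjusted p under 0.05, 11 members (29.7%) were higher in CAC and 0 were lower, where 6.31% of all genes were higher and 6.95% were lower. Every CAC library exceeded every CONT library in 13 members (35.1%), beside 11.8% of all genes. The opposite arrangement was found in 0 members, beside 10.7% of all genes. In bulk tissue, a different number of cells of a type and a different amount of RNA per cell cannot be told apart. With 3 mice a group, an exact two-sided permutation test of a single gene cannot give a p under 0.1.

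DESeq2, the tool that the study used, called 5 members at an adjusted p under 0.05, namely Ephx2, Ehhadh, Cat, Pex5 and Pex3. All 5 (13.5% of the members) were higher in CAC, where 3.18% of the genes that DESeq2 tested were higher and 2.37% were lower. Without CONT replicate 1, DESeq2 called 15 members, 14 of them higher and Acox3 lower, and in that fit 6.01% of all genes were higher and 5.32% lower. Beside the 5 above, the higher ones were Pex6, Pex13, Pex14, Pex16, Pex19, Pxmp2, Pxmp4, Scp2 and Phyh. Without CAC replicate 3 it called Cat and Ephx2 only, both higher, where 1.55% of all genes were higher and 1.76% lower. In edgeR, the 11 members higher at an unadjusted p under 0.05 became 5 without CONT replicate 2 (4% of all genes higher), 7 without CONT replicate 3 (5%) and 6 without CAC replicate 3 (3.84%).

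**Figure D1:**
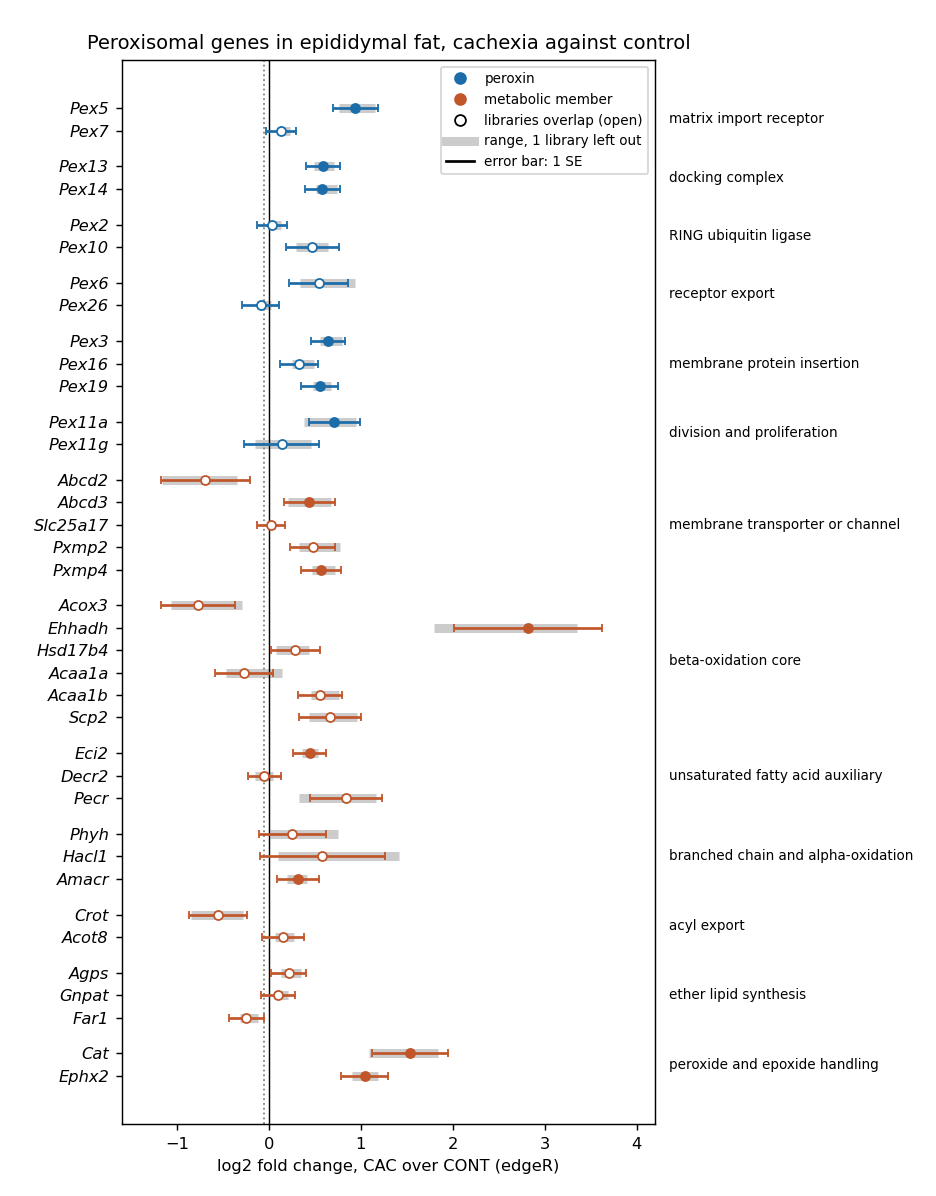
Log2 fold change of CAC over CONT for each of the 37 members (edgeR, 3 libraries a group), grouped by role. Points are estimates with a bar of 1 SE, grey bands span the estimates with 1 library left out, filled points mark the 13 members whose libraries did not overlap, and the dotted line is the median of all genes (-0.06); Ehhadh, Cat and Ephx2 lie farthest to the right.

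The peroxins and the metabolic members were also counted apart, and the difference between them was not tested. Of the 13 peroxins, 12 had a positive fold change, with a median of 0.54. At an unadjusted p under 0.05 by edgeR, 6 (46.2%) were higher and 0 were lower, beside 6.31% and 6.95% of all genes. The same 6 were those whose groups did not overlap, with CAC above CONT, as in 11.8% of all genes. Of the 24 metabolic members, 18 had a positive fold change, with a median of 0.30, and 5 (20.8%) passed the unadjusted threshold, all of them higher. The groups of 7 metabolic members (29.2%) did not overlap, with CAC above CONT in each. The 6 peroxins became 2 without CONT replicate 2 (4% of all genes higher) or without CAC replicate 3 (3.84%). The 5 metabolic members became 3 without CONT replicate 2 or without CONT replicate 3 (5% of all genes higher), and 4 without CAC replicate 3. The summed level of the peroxins was 735 to 865 CPM in CONT and 1087 to 1335 CPM in CAC. That of the metabolic members was 3129 to 3874 CPM in CONT and 4883 to 7211 CPM in CAC, and neither pair of ranges overlapped. Cat and Scp2 together made up 28.7% to 37.6% of all members' reads in CONT and 35.3% to 52.0% in CAC. Without these genes, the sum over the members was still higher in each CAC library (3461 to 4101 CPM) than in each CONT library (2702 to 3177 CPM).

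Of the import receptors, Pex5 was higher in CAC and Pex7 was nearly level. Pex5 (chr6:124396816-124415067), the receptor for PTS1 cargo, measured 79.8, 91.0 and 107 CPM in CONT and 135, 177 and 222 CPM in CAC. The lowest CAC library lay above the highest CONT library, and the log2 fold change was 0.94 ± 0.25 (SE, adjusted p = 0.264 by edgeR). By DESeq2 the adjusted p of Pex5 was 0.0148. Pex7, the receptor for PTS2 cargo, measured 28.9 ± 1.96 CPM in CONT and 31.8 ± 2.26 CPM in CAC (SD, n = 3 mice each). Its groups overlapped, and its log2 fold change was 0.14 ± 0.16 (SE).

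Both members of the docking complex, which receives the loaded receptor at the membrane, were higher in every CAC library. Pex13 measured 85.9, 73.4 and 80.3 CPM in CONT and 120, 103 and 138 CPM in CAC, with a log2 fold change of 0.59 ± 0.19 (SE). Pex14 measured 47.0, 36.7 and 39.2 CPM in CONT and 51.0, 67.6 and 65.3 CPM in CAC, with a log2 fold change of 0.58 ± 0.19 (SE). The adjusted p was 0.291 for Pex13 and 0.305 for Pex14. In Pex14, CAC replicate 1 lay only slightly above the highest CONT library, and the other CAC libraries lay well above it.

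None of the genes that recycle the receptor passed an unadjusted p under 0.05 in edgeR with all 6 libraries. Pex2 and Pex10 belong to the RING ubiquitin ligase that tags the receptor, and Pex6 and its membrane anchor Pex26 belong to the machinery that extracts it. Pex2 measured 33.01 ± 3.08 CPM in CONT and 33.9 ± 1.59 CPM in CAC, and Pex26 measured 16.7 ± 1.57 CPM and 15.7 ± 1.27 CPM (SD, n = 3). Pex10 had a log2 fold change of 0.47 ± 0.29 (SE), and its groups overlapped in a single pair of libraries, the lowest CAC library at 13.1 CPM and the highest CONT library at 13.5 CPM. Pex6 ranged from 76.2 to 160 CPM in CONT and from 132 to 180 CPM in CAC, and CONT replicate 1 was its highest control. The log2 fold change of Pex6 was 0.54 with all 6 libraries, 0.93 without CONT replicate 1 and 0.34 without CONT replicate 2. The adjusted p of Pex6 was 0.463 by DESeq2 with all libraries, 0.000938 by DESeq2 without CONT replicate 1 and 0.0458 by voom.

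Pex3, Pex16 and Pex19 place proteins in the peroxisomal membrane, with Pex19 as the cytosolic chaperone and Pex3 as its docking site. Pex3 measured 36.5, 41.7 and 50.7 CPM in CONT and 73.5, 63.5 and 64.3 CPM in CAC. Its groups were clearly apart, and its log2 fold change was 0.64 ± 0.19 (SE, adjusted p = 0.275). Pex19 measured 170, 156 and 200.4 CPM in CONT and 277, 233 and 262 CPM in CAC, again without overlap (log2 fold change 0.55 ± 0.20, SE). Pex16 measured 124 ± 20.9 CPM in CONT and 155 ± 19.4 CPM in CAC (SD, n = 3), and CONT replicate 1 lay within the CAC range. Its log2 fold change was 0.33 with all libraries and 0.49 without CONT replicate 1 (adjusted p = 0.478 and 0.0290 by DESeq2). Of the division factors, Pex11a measured 49.3, 50.2 and 56.3 CPM in CONT and 61.9, 72.8 and 121 CPM in CAC. All 3 CAC libraries were above the controls, but the distance rested largely on CAC replicate 3, and the log2 fold change of 0.71 ± 0.28 (SE) became 0.38 without it. Pex11g, a paralog at a much lower level, measured 4.25 to 11.2 CPM in CONT and 7.81 to 10.5 CPM in CAC.

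**Figure D2:**
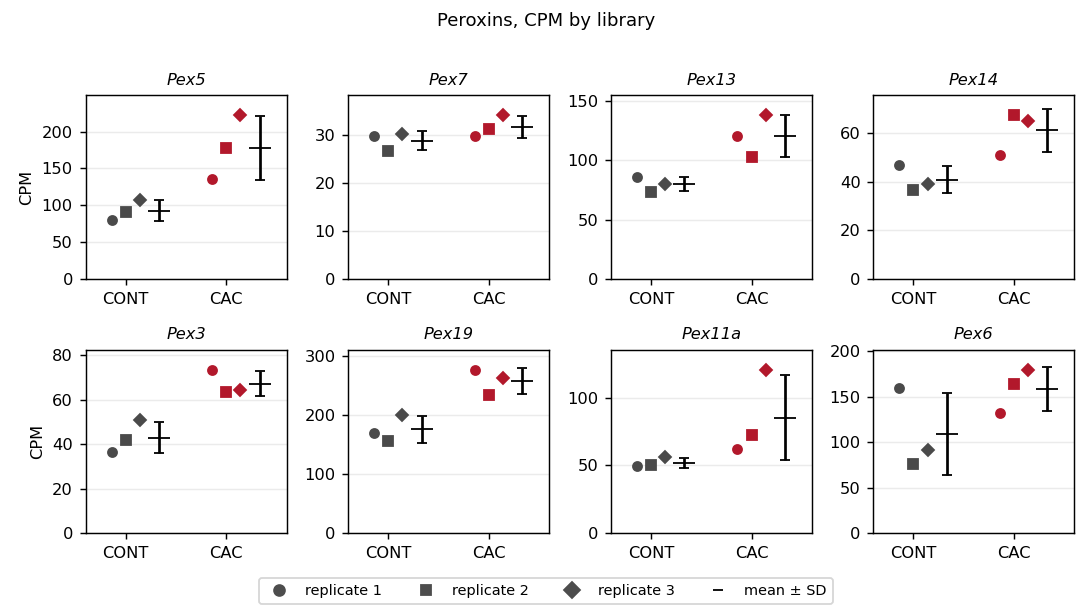
CPM of 8 peroxins in each library, on axes that start at 0, with the mean and SD of each group beside the points. Pex5, Pex13, Pex14, Pex3, Pex19 and Pex11a show no overlap between CONT and CAC, whereas Pex7 is level and Pex6 overlaps through CONT replicate 1.

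The membrane carriers and channels differed in direction. Abcd2 and Abcd3 are half-transporters that bring acyl-CoA into the peroxisome, and Abcd2 is a form enriched in fat. Abcd3 measured 53.9, 92.7 and 111 CPM in CONT and 112, 116 and 121 CPM in CAC. The groups did not overlap, but CAC replicate 1 exceeded CONT replicate 3 only slightly, and the unadjusted p was 0.164 (edgeR, log2 fold change 0.44 ± 0.28, SE, and 0.21 without CONT replicate 1). Abcd2 measured 314 to 596 CPM in CONT and 143 to 478 CPM in CAC, a log2 fold change of -0.69 ± 0.48 (SE). Its lowest values were those of CAC replicates 2 and 3 (269 and 143 CPM), whereas CAC replicate 1 lay within the CONT range.

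Pxmp4, a membrane protein of unsettled function, measured 111, 82.0 and 97.6 CPM in CONT and 164, 116 and 151 CPM in CAC. Its lowest CAC library was above its highest control, and its log2 fold change was 0.57 ± 0.22 (SE, adjusted p = 0.349). Pxmp2, a channel for small solutes, measured 31.0 ± 9.62 CPM in CONT and 43.2 ± 1.99 CPM in CAC (SD, n = 3), and it overlapped through CONT replicate 1 at 41.9 CPM. Its log2 fold change was 0.48 with all libraries and 0.77 without that library (adjusted p = 0.418 and 0.000109 by DESeq2). Slc25a17, a carrier of cofactors such as coenzyme A, had the most even level of all members among the controls (50.6 to 51.0 CPM). Its CAC libraries lay at 49.2 to 56.8 CPM, with a log2 fold change of 0.03 ± 0.15 (SE).

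In the core of β-oxidation, Ehhadh had by far the largest fold change and was the 1 gene of 6 with an unadjusted p under 0.05. Ehhadh (chr16:21761287-21787807), the L-bifunctional enzyme that hydrates and then dehydrogenates the acyl chain, measured 34.3, 44.3 and 65.7 CPM in CONT. In CAC it measured 67.7, 265 and 685 CPM. CAC replicate 1 was thus barely above the highest control, and the other CAC libraries were far above it. The fold was 7.05 (log2 fold change 2.82 ± 0.80, SE, adjusted p = 0.275 by edgeR and 0.00469 by DESeq2), and without CAC replicate 3 the log2 fold change of Ehhadh was 1.80. Hsd17b4, the D-bifunctional enzyme that does the same work on the other stereoisomer, measured 239 ± 30.3 CPM in CONT and 292 ± 82.2 CPM in CAC (SD, n = 3). Its highest library was CAC replicate 1 (385 CPM), the CAC library in which Ehhadh was lowest.

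Acox3, an oxidase that starts the oxidation of branched chains, had the most negative fold change of the members (-0.77 ± 0.40 log2, SE). It ranged from 36.7 to 109 CPM in CONT and from 33.4 to 51.7 CPM in CAC, and it overlapped because CONT replicate 1 was the lowest control. Its log2 fold change was -1.07 without CONT replicate 1, where DESeq2 gave it an adjusted p of 0.0422, and -0.29 without CONT replicate 3. The thiolases end each round of the cycle. Acaa1a measured 199 ± 84.2 CPM in CONT and 165 ± 5.30 CPM in CAC, and Acaa1b measured 57.3 ± 7.48 CPM and 84.2 ± 20.8 CPM (SD, n = 3). The direction for Acaa1a depended on CONT replicate 1 (296 CPM), since its log2 fold change was -0.27 with all libraries and 0.14 without that library. Scp2, which encodes a thiolase of branched chains and a sterol carrier from the same gene, measured 629 to 1033 CPM in CONT and 984 to 1575 CPM in CAC. Its groups overlapped through CONT replicate 1, and its log2 fold change was 0.66 ± 0.34 (SE) with all libraries and 0.96 without that library. The adjusted p of Scp2 by DESeq2 was 0.277 with all libraries and 0.00569 without CONT replicate 1.

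The auxiliary enzymes of unsaturated chains were not alike. Eci2, an isomerase that shifts double bonds, measured 85.0, 70.1 and 83.0 CPM in CONT and 113, 116 and 94.5 CPM in CAC. The groups of Eci2 did not overlap, with a log2 fold change of 0.44 ± 0.18 (SE, adjusted p = 0.368). Pecr, a reductase of trans-enoyl chains, had a larger log2 fold change of 0.84 ± 0.39 (SE) that rested on CAC replicate 2. That library held 50.7 CPM of Pecr, whereas CAC replicate 1 at 18.0 CPM lay below the highest control at 20.1 CPM, and without CAC replicate 2 the log2 fold change was 0.32. Decr2, a reductase of dienoyl chains, measured 26.9 ± 1.47 CPM in CONT and 26.0 ± 3.23 CPM in CAC (SD, n = 3).

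Phyh, Hacl1 and Amacr prepare methyl-branched fatty acids, the first pair by α-oxidation and Amacr by turning the chain to the form that oxidases accept. Amacr measured 14.2, 15.2 and 15.6 CPM in CONT and 22.9, 17.0 and 16.2 CPM in CAC. It did not overlap, but the gap between the nearest libraries was small and the unadjusted p was 0.203 (edgeR, log2 fold change 0.32 ± 0.22, SE). Phyh measured 93.9 to 235 CPM in CONT and 155 to 204 CPM in CAC, and the CONT range enclosed the CAC range because CONT replicate 1 was the highest library. The log2 fold change of Phyh was 0.25 with all libraries and 0.75 without CONT replicate 1 (adjusted p = 0.824 and 0.0101 by DESeq2). Hacl1 was the lowest member, at 1.43 to 7.16 CPM in CONT and 3.96 to 8.88 CPM in CAC, and its SE of 0.68 exceeded its log2 fold change of 0.58, which was 1.42 without CONT replicate 1.

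None of the genes for the export of shortened chains and for ether lipid synthesis passed the unadjusted threshold. Crot, which moves medium-length chains to carnitine for the mitochondria, measured 45.6, 47.0 and 54.2 CPM in CONT and 47.6, 32.5 and 20.3 CPM in CAC. CAC replicate 1 lay among the controls, and CAC replicates 2 and 3 lay below all of them (log2 fold change -0.55 ± 0.32, SE, and -0.28 without CAC replicate 3). Acot8, a thioesterase that frees the chain from coenzyme A, measured 11.6 ± 0.874 CPM and 12.9 ± 1.59 CPM (SD, n = 3). Gnpat and Agps catalyze the first steps of plasmalogen synthesis, and Far1 supplies its fatty alcohol. Gnpat had a log2 fold change of 0.10 ± 0.18, Agps of 0.21 ± 0.19 and Far1 of -0.24 ± 0.19 (SE), all with overlapping groups.

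Cat and Ephx2 were the metabolic members with the smallest unadjusted p. Ephx2 (chr14:66084374-66124500), the soluble epoxide hydrolase that opens lipid epoxides, measured 221, 152 and 199 CPM in CONT and 462, 323 and 396 CPM in CAC. Every CAC library was well above every control, by 2.06-fold on average (log2 fold change 1.04 ± 0.26, SE, adjusted p = 0.242 by edgeR and 0.00466 by DESeq2). Cat (chr2:103453849-103485160), the catalase that breaks down hydrogen peroxide, measured 747, 533 and 646 CPM in CONT and 1122, 1592 and 2870 CPM in CAC. The groups of Cat were also apart, and CAC replicate 3 was much the highest (log2 fold change 1.54 ± 0.42, SE, adjusted p = 0.268 by edgeR and 0.00626 by DESeq2). Without CAC replicate 3 the log2 fold change of Cat was 1.09. Both genes were still called by DESeq2 when either CONT replicate 1 or CAC replicate 3 was left out.

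**Figure D3:**
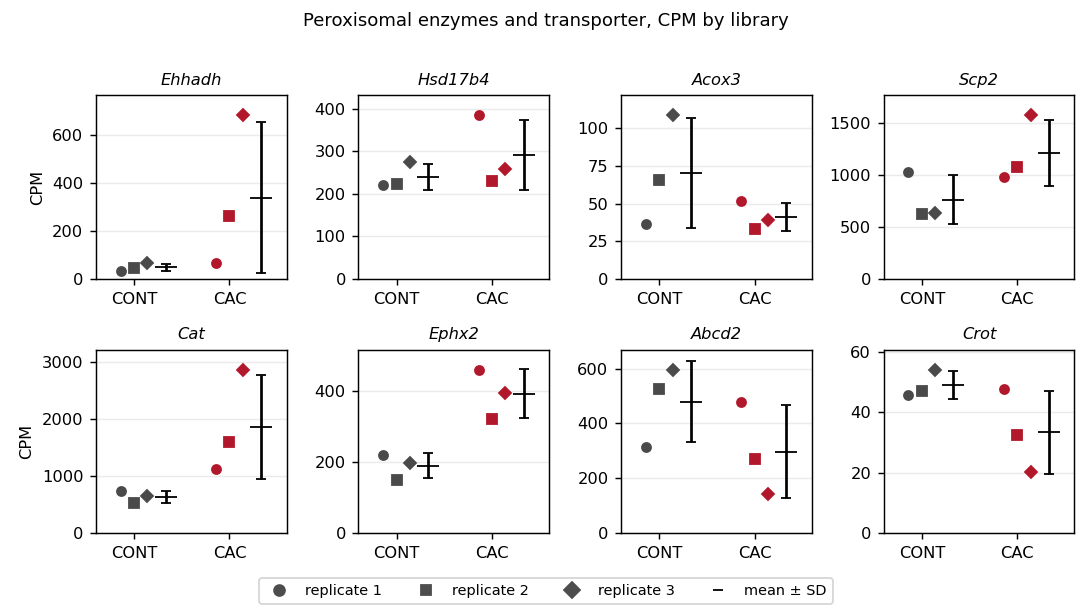
CPM of 7 metabolic enzymes and the transporter gene Abcd2 in each library, on axes that start at 0, with the mean and SD of each group. Ehhadh, Cat and Ephx2 show no overlap, Ehhadh, Cat and Scp2 are highest in CAC replicate 3, and Abcd2 and Crot are lowest there.

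Read by match to the targeting patterns, the members did not fall into groups of uniform direction. These groups are matches of codons and not lists of the cargoes of each receptor. The 8 members with PTS1 codons had a median log2 fold change of 0.22 and a range of -0.55 to 2.82. Of these, 1, Ehhadh, was higher at an unadjusted p under 0.05 (edgeR), where 6.31% of all genes were higher. The 5 members with the PTS2 pattern had a median of 0.44, and Pex11a and Eci2 passed that threshold. The established PTS2 cargoes Acaa1a, Acaa1b and Phyh did not pass, with log2 fold changes of -0.27, 0.56 and 0.25. The 12 metabolic members in which neither pattern was found had a median of 0.38 and ranged from -0.77 to 1.54, and 3 passed (Pxmp4, Cat and Ephx2). The 12 are not shown to lack a signal, since Agps is a known PTS2 cargo and Cat and Ephx2 end close to the PTS1 pattern.

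To compare genes with each other, CPM was divided by gene length in kilobases. On this scale Cat was the most abundant member in both groups, at 246 ± 41.0 CPM per kilobase in CONT and 712 ± 346 in CAC (SD, n = 3). Scp2 was next in both groups, at 220 ± 67.0 in CONT and 348 ± 91.7 in CAC, and in CONT its spread overlapped that of Cat. Abcd2, Phyh, Ephx2, Hsd17b4 and Pex16 followed in CONT with means of 69.9 to 80.5 CPM per kilobase, and these neighbors did not differ beyond their spread. Ehhadh held rank 19 of 37 in CONT (16.1 ± 5.38 CPM per kilobase) and rank 4 in CAC (114 ± 106). Abcd2 held rank 3 in CONT and rank 9 in CAC, where it measured 49.9 ± 28.5, and Ephx2 held rank 5 and rank 3. The lowest ranks in both groups were held by Pex26, Pex7, Pex11g and Hacl1, each with a mean under 3 CPM per kilobase. A rank depends on the length used, which was 12092 bases for Pex7, a gene of 318 coding codons. Before the division Pex7 (28.9 CPM in CONT) lay above Acot8 (11.6 CPM), which ranked higher per kilobase.

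**Figure D4:**
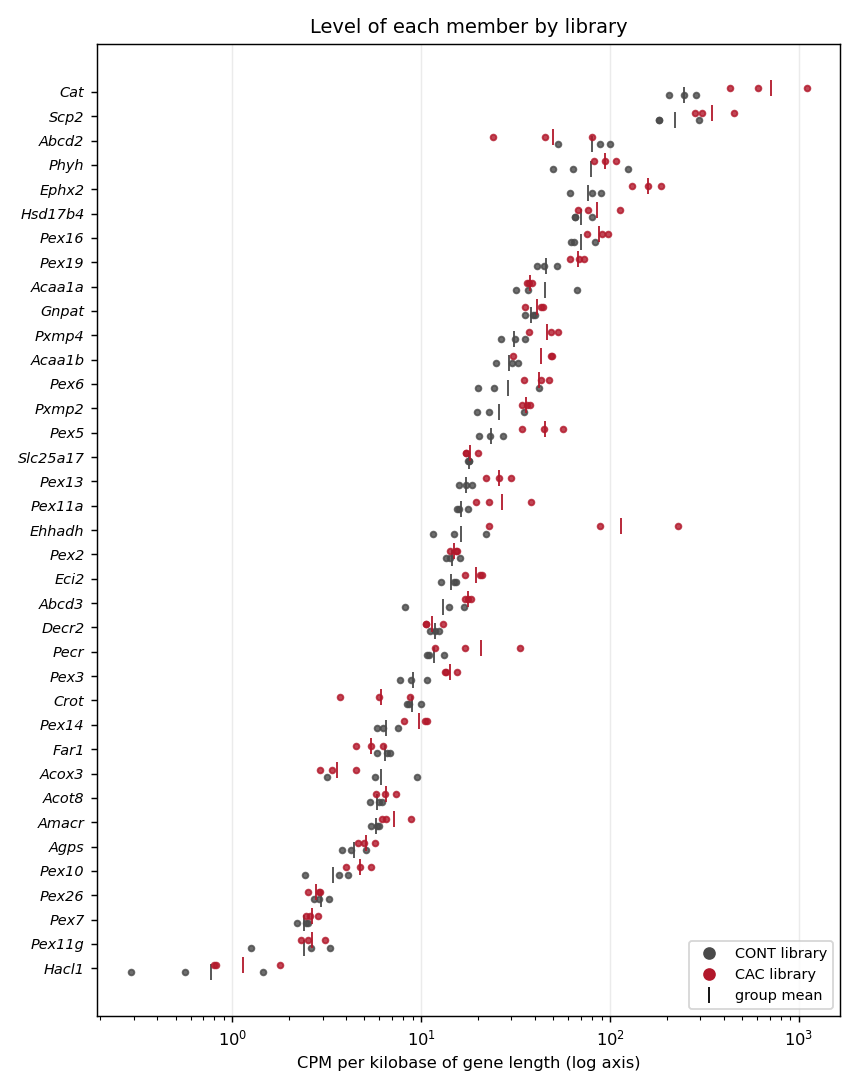
CPM per kilobase of gene length of each member, on a log axis, with 1 point per library and a tick at each group mean, in the order of the CONT mean. Cat is highest (246 in CONT, 712 in CAC), Hacl1 is lowest, and the CAC libraries of Ehhadh reach from the level of the highest control to that of Cat in CONT.

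The CAC libraries differed among themselves. CAC replicate 3 was the highest of the CAC libraries in 19 of the 37 members, CAC replicate 1 in 14 and CAC replicate 2 in 4. Ehhadh, Cat, Pex5 and Pex11a were among the members with the lowest value in CAC replicate 1 and the highest in CAC replicate 3, and Abcd2, Crot and Far1 were among those with the opposite order. Outside the members, the leptin gene Lep followed the same division, with 507 CPM in CAC replicate 1, 3.96 CPM in CAC replicate 2 and 0.412 CPM in CAC replicate 3, against 406 to 692 CPM in CONT. The sum of 8 markers of brown or beige adipocytes was 43.9 to 83.4 CPM in CONT and 47.0, 319 and 613 CPM in CAC. Most of this sum was Kcnk3, at 244 and 468 CPM in CAC replicates 2 and 3, whereas the defining marker Ucp1 was at most 0.531 CPM in any library. Of these markers, 2 were higher and 1 was lower at an unadjusted p under 0.05. Macrophage markers (620 to 1692 CPM in CONT, 699 to 1147 CPM in CAC) and white adipocyte markers (22230 to 54055 CPM and 35140 to 46593 CPM) overlapped between groups, in both cases through CONT replicate 1. The CONT replicates 2 and 3 had macrophage sums of 1692 and 1666 CPM, above every CAC library, and white adipocyte sums of 22230 and 26203 CPM, below every CAC library. At an unadjusted p under 0.05, 1 of 7 macrophage markers was lower (C1qa) and 1 of 9 white adipocyte markers was higher (Pnpla2). Endothelial markers (965 to 1998 CPM in CONT, 1295 to 1668 CPM in CAC) overlapped through CONT replicate 1 as well, and 0 passed that threshold. The sums of mesothelial (80.2 to 177 CPM and 56.4 to 152 CPM) and skeletal muscle markers (7.21 to 42.5 CPM and 9.51 to 45.0 CPM) also overlapped. In each of these lists 1 marker was higher at that threshold (Lrrn4 and Myh4). The sums of fibroblast and progenitor markers (2091 to 2484 CPM in CONT, 1332 to 2033 CPM in CAC), B cell markers (12.5 to 36.6 CPM and 4.57 to 10.3 CPM) and T cell markers (6.50 to 11.3 CPM and 4.76 to 5.95 CPM) were lower in every CAC library. Single markers did not all follow their sum. Of the 5 fibroblast markers, Col1a1, Col3a1 and Dpt were lower in every CAC library, Pdgfra overlapped, and Dcn was higher in each (774 to 965 CPM in CONT, 1090 to 1486 CPM in CAC). Of the 5 T cell markers, Cd4 was lower and Cd3e higher in every CAC library, and 3 of the 5 B cell markers were lower in each, and the part of any of these lists in the members' values was not tested.

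The spread between mice differed by gene and in both directions. The coefficient of variation was larger in CAC for 20 of 37 members, and its median was 14.9% in CONT and 15.3% in CAC. It was larger in CAC in Pex11a (7.32% in CONT, 36.7% in CAC) and Crot (9.38% and 40.9%), and larger in CONT in Acaa1a (42.3% and 3.21%) and Abcd3 (33.8% and 3.77%).

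**Figure D5:**
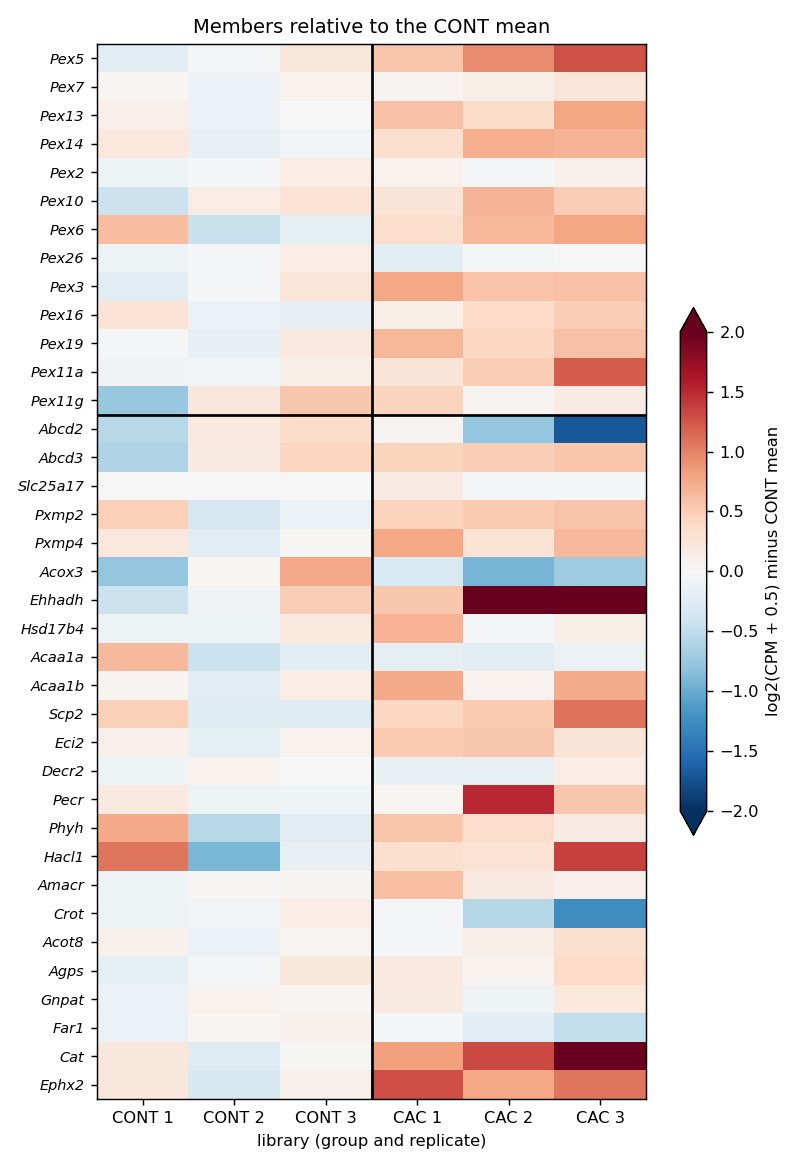
Log2(CPM + 0.5) of each member in each library minus the mean of the CONT libraries, with peroxins above and metabolic members under the horizontal line. Colors saturate at an absolute value of 2, which is passed by Ehhadh in CAC replicates 2 and 3 and by Cat in CAC replicate 3; Pex5, Pex13, Pex3, Pex19 and Ephx2 are red in all 3 CAC libraries.

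Of 59 other genes listed for peroxisomes, 53 passed the filter. Their median log2 fold change was 0.09, with 11 (20.8%) higher and 4 (7.55%) lower at an unadjusted p under 0.05, beside 6.31% and 6.95% of all genes. Their groups did not overlap in 15 genes above (28.3%) and 6 below (11.3%), beside 11.8% and 10.7% of all genes, so that the lower genes were near the background share. DESeq2 called 6 of them higher (11.3%) and 1 lower, beside 3.18% and 2.37% of the genes that it tested. The higher genes included Nudt12, a diphosphatase of nucleotides (25.7, 26.98 and 34.5 CPM in CONT, 53.5, 58.0 and 55.0 CPM in CAC, log2 fold change 0.93 ± 0.18, SE). Nudt12 had the smallest adjusted p of these genes (0.215). The acyl-CoA thioesterase Acot4 measured 8.67, 21.2 and 28.9 CPM in CONT and 63.9, 71.7 and 92.3 CPM in CAC. Acot3, of the same family, had only 1, 4 and 26 reads in the CONT libraries (0.0884, 0.174 and 1.17 CPM) and measured 4.24, 21.1 and 34.4 CPM in CAC, with the order of the CAC libraries that Ehhadh had.

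Further genes of this list with a higher level were Crat, a carnitine acyltransferase (log2 fold change 0.85), Acad11, a dehydrogenase of long acyl chains (1.18), and Grhpr, a reductase of glyoxylate (0.72). The lower genes were Acbd4, an acyl-CoA binding protein (-1.01), Mvk, a kinase of sterol synthesis (-0.66), Nudt19, a diphosphatase of coenzyme A (-0.62), and Idh1, the NADP-linked isocitrate dehydrogenase (-0.53). Idh1 was the gene that DESeq2 called lower, at 229, 246 and 236 CPM in CONT and 170, 166 and 156 CPM in CAC.

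The 6 genes listed as regulators, Ppara, Ppard, Pparg, Rxra, Ppargc1a and Ppargc1b, all had positive fold changes, with a median log2 of 0.60, but 0 of them passed an unadjusted p under 0.05. Ppara, a receptor for fatty acids, measured 1.42, 9.69 and 8.88 CPM in CONT and 8.55, 38.1 and 28.6 CPM in CAC, so that CAC replicate 1 lay within the controls (log2 fold change 1.90 ± 0.81, SE). The element that PPAR and RXR bind is a direct repeat of AGGTCA spaced by 1 base. In RefSeq promoter windows (GRCm38.p6, 300 bases around the gene start, both strands) it was found without a mismatch in 13 of 32851 promoters (0.04%) and with at most 1 mismatch in 182 (0.554%). Of the members, 30 had a promoter in that table and 0 of these held either form, which says nothing on sites elsewhere. At shares so small, 30 promoters of any genes would mostly hold none, so this count cannot set the members apart.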

How the data were processed

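RNA was sequenced from eWAT of 3 CAC and 3 CONT mice, 1 library per mouse, and groups were taken from the deposited labels. The authors cleaned the reads, aligned them with HISAT2 2.0.5 to GRCm38 and counted reads per gene with featureCounts 1.5.0-p3, per their processing notes. The authors deposited these counts without normalization, and beside them FPKM values, which scale the same counts by gene length and depth. The depth used there was 0.879 to 1.44 times the sum of the deposited counts.

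Here the counts were tested with edgeR 4.0.16 (R 4.3.3, TMM normalization, its filter on low counts by group, robust quasi-likelihood test, Benjamini-Hochberg adjustment over 17296 genes), with group as the only term. CPM refers to TMM-adjusted library sizes and is computed from the counts. Alternatives used DESeq2 1.42.0, limma 3.58.1 (voom with sample quality weights, and FPKM values plus 1 or 0.1), other normalizations and filters, a replicate block and libraries left out. The test was tried on simulated data. The members and lists were chosen with earlier results of these data known. All 37 members are named. Values in every library are given for members with an unadjusted p under 0.05 or groups that did not overlap, and of the other peroxisomal genes and regulators at most 12 are named, by smallest p, besides Ppara and the other regulators, which are listed by name. Some genes that this rule would name are not reported here. Replicate libraries of a group differed by more than sampling noise (chi-square per degree of freedom of at least 66.7), so none was a copy. Targeting signals were read from GENCODE M21 coding sequences with Biopython 1.88 and promoters from a RefSeq table.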

Additional observations from a re-analysis of the deposited data

How the results depend on the processing

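Over all members, 0 had an adjusted p under 0.05 by edgeR under RLE or upper-quartile normalization, without the mitochondrial genome, with no filter or a strict filter, without robust estimation, with each library left out, or by limma on FPKM. The count was 5 with DESeq2 and 6 with voom, of which 3 were shared, and voom called 5.53% of all genes. Voom gave 10 metabolic members higher and 3 lower at an unadjusted p under 0.05, where 12.4% of all genes were higher and 16.0% lower. With 1 library left out, the peroxins higher at that threshold numbered 2 to 7, the metabolic members 3 to 7 higher and 0 to 2 lower, beside 3.55% to 7.30% of all genes higher and 3.69% to 8.28% lower. The members without overlap numbered 13 to 24. The share of all genes without overlap was then 13.3% to 18.1% above and 13.1% to 19.6% below. The metabolic median ranged from 0.216 to 0.381. Chosen after seeing the data were 3 alternatives. Without CONT replicate 1 and CAC replicate 3 together, 12 members were higher and 1, a metabolic member, was lower at an unadjusted p under 0.05 by edgeR. In that fit 8.08% of all genes were higher and 10.6% lower. The metabolic median was 0.41 and 27 members did not overlap, beside 28.4% of all genes above and 26.0% below. DESeq2 without CONT replicate 1 called 15 members at the adjusted threshold. At an unadjusted p under 0.05 that fit gave 10 metabolic members higher and 1 lower, beside 6.92% and 6.24% of all genes with any read. Members without overlap numbered 23, beside 12.7% of these genes above and 15.3% below. DESeq2 without CAC replicate 3 called 2, and its median over all genes was -0.25. Small fold changes reversed. By voom the log2 value was -0.032 in Pex2, -0.20 in Pex11g, -0.0096 in Slc25a17, 0.082 in Acaa1a and -0.039 in Gnpat. It was -0.0039 in Slc25a17 with upper-quartile normalization and 0.031 in Decr2 with no filter, and DESeq2 without CONT replicate 1 gave -0.11 in Pex11g and 0.19 in Acaa1a. With 1 or 2 libraries left out, Pex2 ranged from -0.0021 to 0.13, Pex11g from -0.15 to 0.46, Acaa1a from -0.46 to 0.17, Pex26 from -0.13 to 0.024 and Decr2 from -0.15 to 0.0497. The cause of these shifts was not tested. Same-numbered libraries did not deviate together (correlations 0.27, -0.23 and -0.26), so the numbers are not known to pair mice. With the replicate number as a replicate block, 4 peroxins and 5 metabolic members were higher at an unadjusted p under 0.05, beside 5.23% of all genes, and 0 members passed the adjusted threshold. At 11.3 reads per CPM in the shallowest library, values of a few CPM, as in Hacl1 and Pex11g, rest on few reads.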

Other observations

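Ratios of read counts between members within a library do not depend on the scaling of the libraries. The pairs below were chosen after values had been seen, and the ratios are given with no test. Ehhadh over Hsd17b4, the L- over the D-bifunctional enzyme, was 0.155, 0.199 and 0.240 in CONT and 0.176, 1.15 and 2.65 in CAC, so that CAC replicate 1 lay within the CONT range and the other CAC libraries lay far above it. Abcd2 over Abcd3, the half-transporters, was 5.39 to 5.81 in CONT and 4.27, 2.32 and 1.18 in CAC, below the controls in every CAC library. Pex5 over Pex7, the PTS1 over the PTS2 receptor, was 2.68, 3.42 and 3.55 in CONT and 4.53, 5.67 and 6.49 in CAC, above the controls in every CAC library. Crot over Acot8, the enzymes that export shortened chains as carnitine esters or free acids, was 3.71 to 4.53 in CONT and 4.16, 2.55 and 1.39 in CAC, and CAC replicate 1 lay within the CONT range. Acaa1a over Acaa1b was 2.56 to 4.97 in CONT and 1.70 to 2.67 in CAC, with overlapping groups and with reads that the near-identical copies may share. Cat over Acox3, an enzyme that removes hydrogen peroxide over one that makes it, was 20.4, 8.13 and 5.94 in CONT and 21.7, 47.7 and 73.8 in CAC, with CAC replicate 1 close to CONT replicate 1. Pex11a over Pex11g was 5.04 to 11.6 in CONT and 5.91 to 14.1 in CAC, with overlapping groups.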
